A study of Mus musculus with 4 samples.

Results

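The genes described here are 30 neighbours on mouse chromosome 10, from Prim1 to Bloc1s1, that were listed because the stretch had more reads in libraries of Mov10 knockout (KO) embryonic stem cells than in wild-type (WT) libraries. The members were chosen by their read number in the comparison of the genotypes, so read number is given below as a description with no test. Reads were found for 29 of the 30 symbols, out of 13831 symbols in the whole table; Ankrd52 was not analysed here. Of these, 19 had a mean of at least 10 reads per library and could be compared for read number, and 11 had at least 20 reads in each library and could be tested for poly(A) tail length, a measure that did not enter the choice. The members are named in the order of the RefSeq annotation of mouse assembly GRCm38.p6, with 15 on the plus strand, 14 on the minus strand and Erbb3 without an entry in the promoter table used for strand.

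All libraries came from the J1 mouse embryonic stem cell line, grown in serum with LIF, and no treatment was given. WT cells and Mov10 KO cells had 2 libraries each, named WT 1, WT 2, KO 1 and KO 2. Mov10 is an RNA helicase; how the knockout was made, and whether it is a single clone, is not given in the sources used here, nor is it stated that replicates came from separate cultures, so the tests measure only the spread between these libraries. Messenger RNA was enriched on oligo(dT) beads, the libraries were barcoded and pooled for the run, and RNA was read as native strands by direct RNA nanopore sequencing, so that each read is a single molecule with its own tail.

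The members share a chromosomal address and not a pathway. The products of Prim1, Timeless, Cdk2 and Nabp2 act in DNA replication, its protection and the cell cycle, and those of Baz2a and Smarcc2 are subunits of chromatin remodelling complexes. Naca is a subunit of the complex that meets nascent chains at the ribosome, Ptges3 encodes the Hsp90 co-chaperone p23, and Myl6 encodes an essential light chain of non-muscle myosin. In embryonic stem cells, which divide fast and translate actively, most of these are housekeeping products. A poly(A) tail is added to nearly all messenger RNAs in the nucleus, shortens in the cytoplasm and is bound by proteins that affect translation and decay.

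Upstream sequences are shown for 4 members, the most abundant pair (Naca and Myl6) and the pair with many reads and the largest differences (Ptges3 and Bloc1s1), so that a reader can see how unlike these neighbouring starts are. Each is the 120 bases that end just before the RefSeq transcription start on GRCm38.p6, written 5′ to 3′ on the gene's own strand. Capitals mark matches, on either strand, to motifs searched without mismatches. These were the SP1 GC box (GGGCGG), the CCAAT box named for its letters, the binding motif of ETS factors (CCGGAAG), the NRF1 site, the TATA box, searched for by the letters TATAAA, and the E-box of basic helix-loop-helix factors (CACGTG).
Naca, chr10:128035226-128035345, plus strand: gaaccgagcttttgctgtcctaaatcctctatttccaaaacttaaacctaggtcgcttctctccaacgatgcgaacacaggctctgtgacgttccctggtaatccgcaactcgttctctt
Ptges3, chr10:128058862-128058981, plus strand: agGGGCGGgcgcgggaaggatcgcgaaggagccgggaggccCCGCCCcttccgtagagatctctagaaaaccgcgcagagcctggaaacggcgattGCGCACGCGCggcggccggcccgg
Myl6, chr10:128493887-128494006, minus strand: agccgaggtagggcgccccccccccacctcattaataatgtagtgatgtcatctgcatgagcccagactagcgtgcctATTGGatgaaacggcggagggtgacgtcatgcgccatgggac
Bloc1s1, chr10:128923525-128923644, minus strand: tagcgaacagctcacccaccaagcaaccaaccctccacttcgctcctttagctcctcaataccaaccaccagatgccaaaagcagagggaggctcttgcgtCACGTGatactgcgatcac

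The Naca window held none of these motifs, that of Ptges3 held 2 GC boxes and an NRF1 site, that of Myl6 held a CCAAT box and that of Bloc1s1 held the E-box. Over the 250 bases before the start, for the 29 members in the promoter table (all but Erbb3), the GC box was present in 16 (55.2%), against 32.9% of all 27025 promoters and 62.9% of the 3846 promoters of genes tested for read number. The CCAAT box was present in 13 members (44.8%, against 34.5% of all and 39.3% of tested genes) and the ETS site in 4 (13.8%, against 7.05% and 18.4%). The E-box was present in 2 members (6.90%, against 6.05% and 10.01%). The NRF1 site occurred only upstream of Ptges3 and the TATA box only upstream of Gdf11 among these members, against 3.86% and 12.97% of all promoters and 10.7% and 5.69% of those of tested genes. The median GC content of the members' windows was 57.2%, with a range from 41.2 to 82.8%, against 60% for the tested genes and 52% for all promoters. No motif was held by all members, and these matches are descriptions of letters, not of binding.

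The libraries held from 351133 to 683239 reads with a tail above 0. Mov10 itself had 26 and 14 reads in WT and 0 and 1 in KO. All 10 listed embryonic stem cell markers had reads, with summed levels from 7288 to 9637 reads per 1000000 reads (RPM), higher in WT (from 9519) than in KO (up to 8307). Of 7 fibroblast feeder markers 1 had reads (5.70 to 13.95 RPM, Thy1), with Col1a1, Col1a2, Col3a1, Dcn, Lum and Postn at 0. Of 5 endoderm markers 3 had reads (0 to 4.55 RPM), with Sox17 and Foxa2 at 0, and of 3 mesoderm markers 2 had reads (1.46 to 6.98 RPM), with T at 0. The neural list had 3 of 4 genes with reads, Sox1 being at 0, and its sum lay between 29.6 and 76.9 RPM for WT and between 88.4 and 124 RPM for KO. The part of these marker differences in the results below was not tested.

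Together the 29 members had 10958 reads. They made up 0.385% of the reads of WT 1 and 0.492% of WT 2, against 0.682% of KO 1 and 0.669% of KO 2. Naca alone gave between 32.2 and 37.8% of the members' reads in each library. Without Naca and Myl6, the share of the library was 0.187% and 0.209% in WT and 0.292% and 0.327% in KO. Both KO libraries thus lay above both WT libraries with and without the pair that gave most of the reads.

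For single genes, reads were scaled by median of ratios and are given as scaled RPM, and log2 differences between KO and WT are from limma's voom fit over the 4815 genes whose mean reached 10 reads. Of the 19 members in that fit, 18 had a log2 difference above 0, where 49.4% of all genes did. Both KO libraries were above both WT libraries for 11 members, where 20% of all genes showed this, and below both WT libraries for none, where 20.5% did. Without WT 1 the first of these counts was 17 of 19, beside 36.8% of all genes. The median log2 difference of the 19 members was 0.51, which is a ratio of 1.42, against -0.01 over all genes. Since the list was drawn up for this difference, nothing is read from these shares. No gene of the 4815 passed a Benjamini-Hochberg adjusted p of 0.05 in limma (0.00% in either direction), and 10.3% had an unadjusted p under 0.05. The count of genes that passed was 451 without WT 2, 93 without WT 1, 97 with no filter on reads and 7 with scaling to library totals. In bulk RNA, more reads from a gene in each cell and more cells that express it cannot be told apart.

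**Figure D1:**
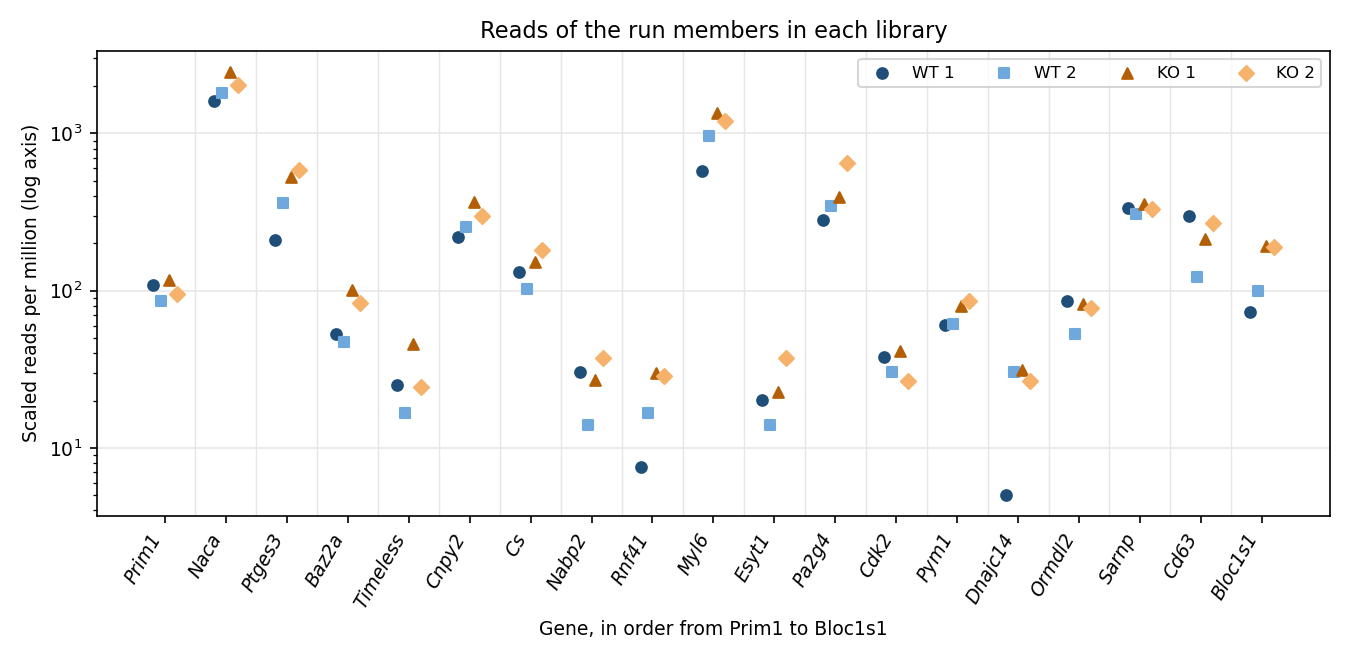
Scaled reads per 1000000 reads (log axis) of the 19 members that reached a mean of 10 reads, in order along chromosome 10; each symbol is 1 library, with no error bars. Bloc1s1 and Ptges3 show both KO libraries above both WT libraries, while Cdk2 and Sarnp show the genotypes close together.

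Among the members that act on proteins as they are made or folded, the complex at the ribosome and the Hsp90 co-chaperone had more reads in KO. Naca had 1613 and 1798 scaled RPM in WT and 2459 and 2043 in KO, a log2 difference of 0.40 with a standard error (SE) of 0.21. The KO libraries were both higher, and the lower of them stood closer to WT 2 than to the other KO library. On transcripts with a single symbol, which hold the few Naca reads not on the leading transcript, the difference was 1.55. Ptges3 had 209 and 361 scaled RPM in WT and 528 and 582 in KO, a log2 difference of 1.01 (SE 0.28). The WT libraries were far apart, and the difference was 0.60 without WT 1 and 1.40 without WT 2. Pa2g4, whose product binds ribosomes and structured RNA, had 282 and 345 in WT and 394 and 644 in KO (log2 0.67, SE 0.28), with KO 2 well above KO 1. Its difference was 1.06 without KO 1, 0.34 without KO 2 and 0.35 on transcripts with a single symbol. That last value leaves out the leading Pa2g4 transcript (455 of 804 reads), on which 1 read was named Ruvbl2. Cnpy2, an endoplasmic reticulum protein of the saposin-like family, had 219 and 256 in WT and 365 and 298 in KO (0.48, SE 0.26).

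Of the neighbouring myosin light chain genes, only Myl6 had enough reads for the fit. Myl6 had 580 and 961 scaled RPM in WT and 1350 and 1196 in KO (log2 0.77, SE 0.25), so that WT 1 was the low library and WT 2 stood nearer to KO. Without WT 1 the difference was 0.40, and without WT 2 it was 1.14. On transcripts with a single symbol it was 1.24. That value leaves out the leading Myl6 transcript (1670 of 2064 reads), on which 1 read was named Gm8894. The adjacent paralog Myl6b had 11 and 4 WT reads against 4 and 9 KO reads, too few for the fit, and its libraries overlapped.

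Members at the nuclear genome were mixed. Baz2a, the large subunit of the nucleolar remodelling complex, had 52.9 and 47.2 scaled RPM in WT and 101 and 83.8 in KO (log2 0.87, SE 0.35), with both KO libraries above both WT libraries. The 95% Poisson intervals overlapped, reaching 80.9 for WT 1 and beginning at 59.3 for KO 2. Prim1, the catalytic subunit of DNA primase, had 108 and 86.1 in WT and 117 and 94.9 in KO (0.13, SE 0.31), and its libraries overlapped. Its difference was -0.03 without WT 2 and -0.01 without KO 1. Cdk2, the kinase partner of cyclins E and A, was the single member below 0 in the fit, with 37.8 and 30.6 in WT and 41.4 and 26.5 in KO (-0.02, SE 0.43). Its direction was not stable, at 0.09 with scaling to library totals, 0.14 without WT 1, -0.35 without KO 1 and 0.25 without KO 2. Timeless, which protects replication forks, had 25.2 and 16.7 in WT and 45.7 and 24.3 in KO (0.69, SE 0.55). Nabp2, a single-stranded DNA binding protein, had 30.3 and 13.9 in WT and 27.1 and 37.5 in KO (0.51, SE 0.54). Both rested on few reads and overlapped between the genotypes, and Nabp2 had 1.05 without WT 1 and 0.01 without WT 2, and Timeless 1.07 without KO 2.

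Members of membranes and vesicles included the end of the run. Bloc1s1, a subunit shared by complexes that act in the making and movement of lysosome-related organelles, had 73.1 and 100.04 scaled RPM in WT and 193 and 190 in KO (log2 1.15, SE 0.30). The WT values come from 29 and 36 reads and the KO values from 135 and 86. The exact 95% Poisson intervals, which cover counting error only, ended at 138 scaled RPM or lower for the WT libraries and began at 152 or higher for the KO libraries. Cd63, a tetraspanin of late endosomes, had 297 and 122 in WT and 213 and 269 in KO (0.30, SE 0.34), with WT 1 highest and WT 2 lowest of all 4 libraries. Its difference was 0.94 without WT 1, -0.33 without WT 2 and 0.01 on transcripts with a single symbol. That last value leaves out 100 of 433 Cd63 reads, which shared a transcript with 3 reads named Cd63-ps.

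Esyt1, a tether between the endoplasmic reticulum and the plasma membrane, had 20.2 and 13.9 in WT and 22.8 and 37.5 in KO (log2 0.67, SE 0.60), and 0.42 without WT 2 and 1.09 without KO 1. Ormdl2, a regulator of sphingolipid synthesis, had 85.7 and 52.8 in WT and 82.8 and 77.2 in KO (0.23, SE 0.35), and its libraries overlapped. Its difference was 0.58 without WT 1 and -0.10 without WT 2. Dnajc14, a membrane-bound J-domain co-chaperone, had 5.04 and 30.6 in WT and 31.4 and 26.5 in KO (1.17, SE 0.73). WT 1 stood alone there with 2 reads, and the difference was -0.09 without it and 2.26 without WT 2. The table put reads of Ormdl2 and Dnajc14 on the same transcripts (137 of 146 Ormdl2 reads and all 47 Dnajc14 reads), so their reads cannot be divided with certainty.

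The members that act on RNA, in metabolism and in ubiquitin signalling filled the range. Sarnp, a component of messenger RNA export, had 333 and 306 in WT and 354 and 329 in KO (log2 0.10, SE 0.25, and 0.21 with scaling to library totals). Its libraries overlapped. Pym1, which takes exon junction complexes apart on translated messenger RNAs, had 60.5 and 61.1 in WT and 79.9 and 86.0 in KO (0.43, SE 0.33). The SD between the Pym1 libraries was 0.445 in WT and 4.34 in KO, but the WT values rest on 24 and 22 reads. The 95% Poisson intervals of the Pym1 libraries overlapped, reaching 92.6 scaled RPM in WT 2 and beginning at 60.4 in KO 1. Cs, the citrate synthase of the mitochondrial matrix, had 131 and 103 in WT and 151 and 181 in KO (0.49, SE 0.29, and 0.32 without WT 2). Rnf41, a ubiquitin ligase that limits ErbB receptors, had the highest log2 difference among the members fitted, 1.30 (SE 0.72), on 3 and 6 WT reads against 21 and 13 KO reads. The Poisson intervals of its libraries overlapped, reaching 36.3 scaled RPM in WT 2 and beginning at 15.3 in KO 2. Its difference was 0.74 without WT 1.

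The 10 members below the limit of the fit had from 3 to 38 reads in all 4 libraries together, 154 reads in sum. They were Stat2, Coq10a, Smarcc2, Myl6b, Zc3h10, Erbb3, Suox, Rab5b, Dgka and Gdf11, which include a signal transducer of type I interferon (Stat2), a receptor kinase (Erbb3) and a secreted factor of the TGF-beta family (Gdf11). The mean was higher in KO for 5 of them and higher in WT for 5. Both KO libraries were above both WT libraries only for Smarcc2 among these, where 16.7% of all genes showed this with no read filter. Smarcc2, a core subunit of the BAF complex, had 3 and 0 WT reads against 6 and 5 KO reads. These 10 members had too few reads for the fit, so the statement that the stretch had more reads in KO rests on the 19 others.

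The list leaves out 6 fitted genes that lie between its members, and these had 6 of 6 log2 differences above 0 and both KO libraries above both WT libraries in each case, with a median of 0.61. They belong to the same stretch and the same contrast, so this is a description too. Rps26, a ribosomal protein of the small subunit, had 2458 and 1367 scaled RPM in WT and 3510 and 3082 in KO (log2 0.84, SE 0.24), and as for Rpl41 its reads may be split with near-identical copies. Rpl41 had 0.43 (SE 0.20), and Atp5b, a subunit of the mitochondrial ATP synthase, 0.23 (SE 0.21). Rbms2 had 1.86 (SE 0.78), Spryd4 0.76 (SE 0.58) and Gls2 0.45 (SE 0.54). All rested on few WT reads, 5 and 2 for Rbms2, 6 and 7 for Spryd4 and 9 and 6 for Gls2.

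At the distal end no gene with enough reads followed Bloc1s1, which was the last of the 237 fitted genes of chromosome 10. At the proximal end the 3 nearest fitted genes were Shmt2, Ndufa4l2 and Gli1, with log2 differences of 0.40 (SE 0.25), -0.49 (SE 0.69) and 0.60 (SE 0.51). Just inside that end, Prim1 had 0.13 and Naca 0.40, so the values on either side of it did not form a step. Of the 15 nearest fitted genes before Prim1, 10 had a log2 difference above 0, with a median of 0.40. Over all 212 fitted genes before Prim1 the median was 0.06 and 55.7% were above 0. From Prim1 on, 18 fitted genes in a row were above 0 before Cdk2, counting those that are not members. Such a row was not particular to the run. All fitted genes from Nup107 (189th in order) to Tsfm (203rd) were also above 0, with values from 0.01 (Llph) to 1.53 (Xpot). Between Tsfm and Prim1 (213th) the values lay on both sides of 0.

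**Figure D2:**
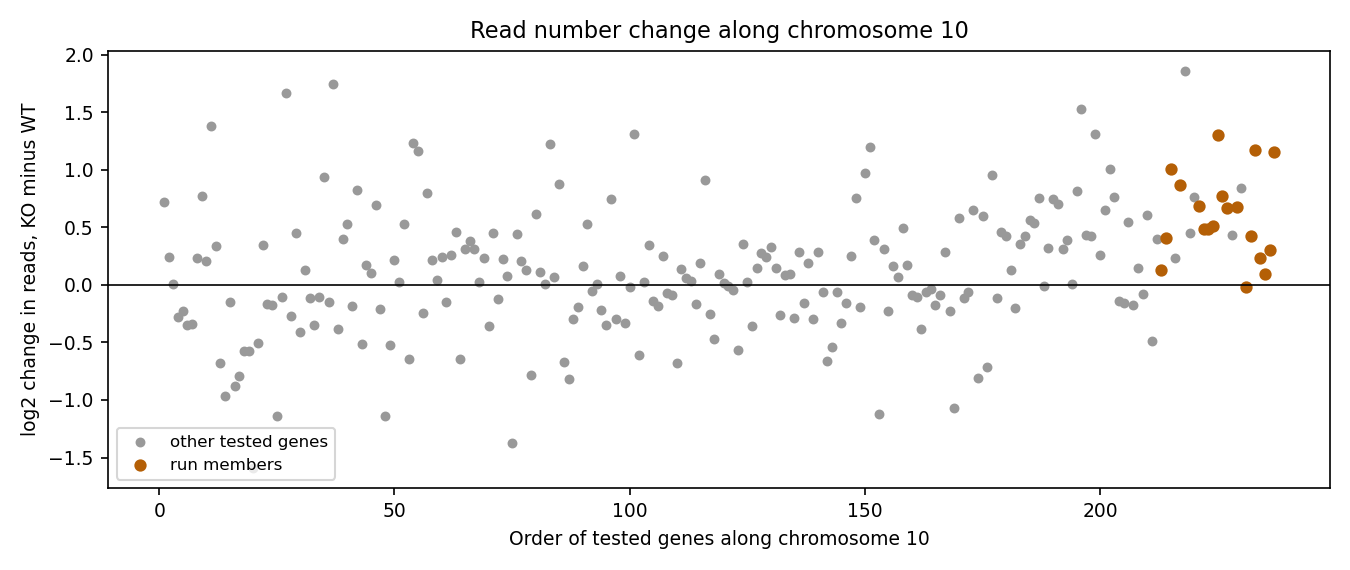
Log2 difference in read number (KO minus WT) of the 237 fitted genes of chromosome 10 against their order along the chromosome, 1 point per gene. The 19 members (orange) lie at the right-hand end between -0.02 and 1.30. Genes before them scatter on both sides of 0, with a median of 0.06 over all 212 and of 0.40 over the nearest 15.

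Partners of the members that are encoded elsewhere in the genome were compared in the same fit, since their read number did not enter the choice. The list named 46 binding partners or close relatives, of which 40 lie outside chromosomes 10 and 11, and 34 of these were fitted. None passed an adjusted p of 0.05 in limma's voom test, and none passed with limma-trend. An unadjusted p under 0.05 in the voom test was found for 2 (Inip and Cd9), where 10.3% of all genes had it. Of the 34, 15 had a log2 difference above 0 and 19 below 0, with a median of -0.06 against -0.01 for all genes. Both KO libraries were above both WT libraries for 6 of the 34, where 20% of all genes showed this. They were below both WT libraries for 6, where 20.5% of all genes did.

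Btf3, which pairs with Naca, had 1079 and 1195 scaled RPM in WT and 1243 and 1286 in KO (log2 0.15, SE 0.22, adjusted p = 0.855 in limma). Hsp90aa1, the chaperone that Ptges3 assists, had 0.28 (SE 0.22, limma adjusted p = 0.682). The highest values were those of Pola2 (0.76, limma adjusted p = 0.594), a subunit of the polymerase that carries primase, and Myh9 (0.67, adjusted p = 0.742 in limma), a myosin heavy chain. The lowest were those of Inip (-1.35, limma adjusted p = 0.380), a member of the single-stranded DNA binding complex with Nabp2, and Prim2 (-0.75, limma adjusted p = 0.592), the other primase subunit. WT 1 had 156 scaled RPM of Prim2 and the other libraries 41.9 to 58.5, and without WT 2 it passed the threshold (limma adjusted p = 0.000262). In that setting 451 genes passed, and WT 1, the lone WT library, was assumed to vary like the KO libraries. Cd9, a tetraspanin like Cd63, had 290 and 395 in WT and 260 and 188 in KO (-0.60, limma adjusted p = 0.463). The difference between the members and their partners was not tested.

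**Figure D3:**
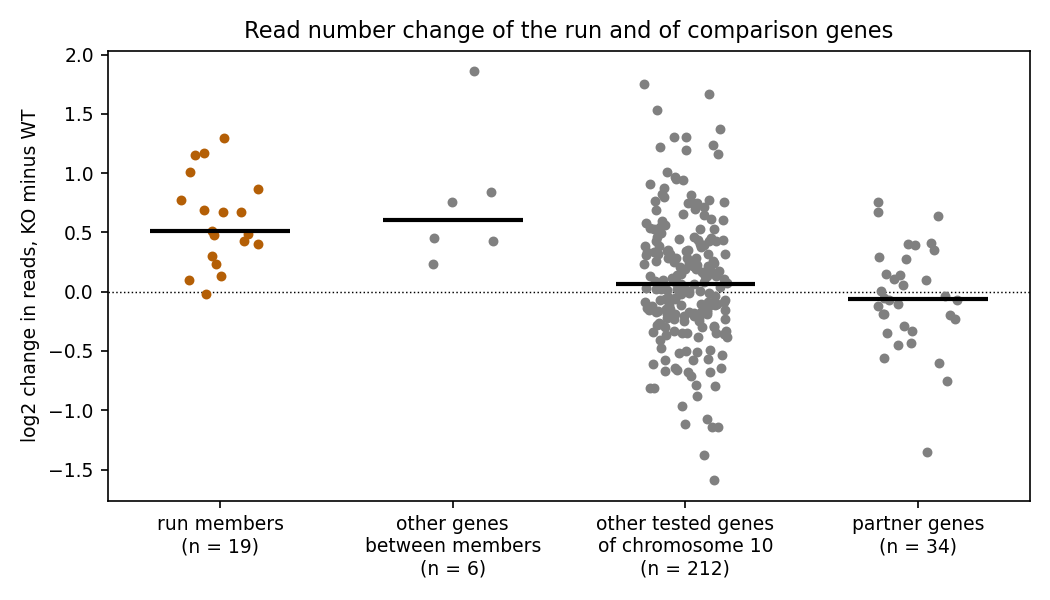
Log2 difference in read number (KO minus WT), 1 point per gene, with a bar at the median, for the 19 members, 6 other fitted genes between them, 212 other fitted genes of chromosome 10 and 34 partner genes. The medians are 0.51, 0.61, 0.06 and -0.06, and the points of the members were chosen for lying above 0. The 15 fitted genes nearest before Prim1, part of the 212, have a median of 0.40.

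Tail length gave an independent readout for the 11 members with at least 20 reads in each library. No member differed in tail length between the genotypes past the threshold (limma, adjusted p = 0.9998 for each of the 11). None had an unadjusted p under 0.05 either, where 2.33% of the 1935 genes tested did, nor did more than 2 of the 11 with any 1 library left out, and 0.00% of all genes passed the adjusted threshold. The median log2 difference of the members was -0.07, against 0.01 over all genes, with 3 members longer and 8 shorter in KO, where 51.8% of all genes were longer. Both KO libraries were below both WT libraries for 2 members, Cnpy2 and Pa2g4 (11.8% of all genes), and above them for none (14.7% of all genes). The median was -0.14 without KO 1 and -0.01 without KO 2. Leaving out either library thus moved it by at least the SD of the members' median between replicates (0.06). The geometric mean in place of the median tail did so too (-0.01).

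By library, the median of the members' median tails was 104 nt for both WT libraries, 108 nt for KO 1 and 102 nt for KO 2. The same value over all 1935 genes was 102 nt (WT 1), 109 nt (WT 2), 110 nt (KO 1) and 102 nt (KO 2). In each library from 4 to 6 of the 11 members lay above the value for all genes, so the stretch as a whole was neither long nor short in tail.

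**Figure D4:**
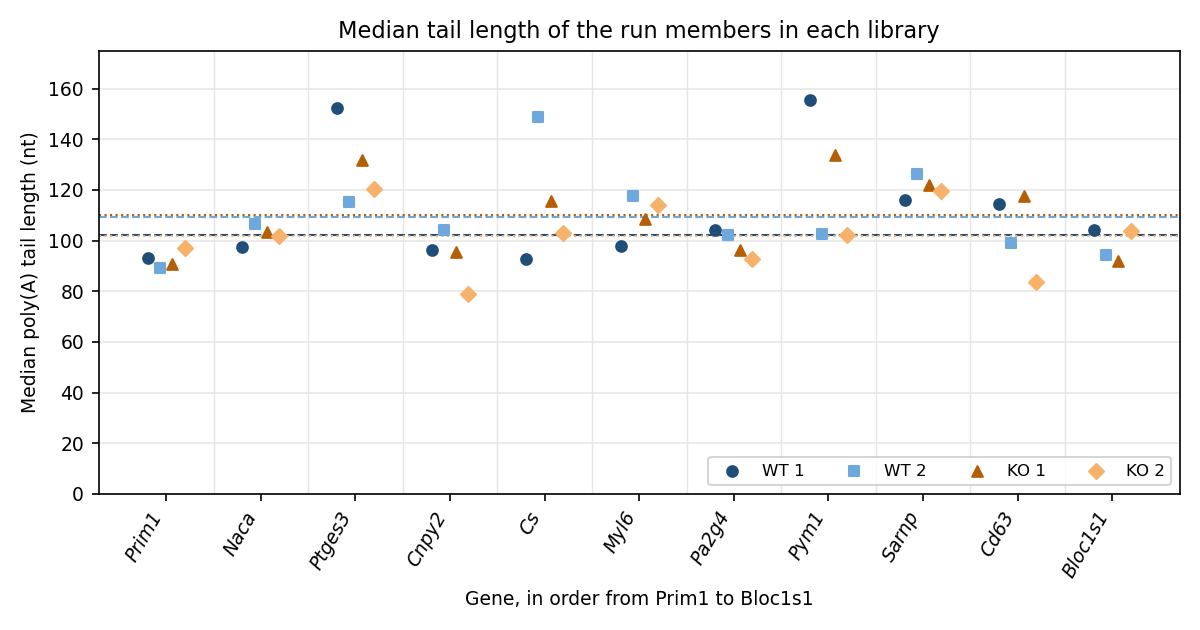
Median poly(A) tail length in nt of the 11 tested members, in order along chromosome 10; each symbol is 1 library, with no error bars, and the horizontal lines give the median over all 1935 tested genes in each library (dashed for WT, dotted for KO). Ptges3 lies above all of these lines in each library, Prim1 below them, and the genotypes are apart only for Cnpy2 and Pa2g4 among these 11 members, neither of which passed the test.

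With each library left out in turn, Cnpy2 and Pa2g4 were the only members of the 11 whose tail difference kept its direction; that of Ptges3 was 0.13 without WT 1 and -0.27 without WT 2.

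Some members had long and others short tails in all libraries. Ptges3 carried long tails, with medians of 152 and 115 nt in WT and 132 and 120 nt in KO, and its WT mean of 134 nt ± 26.2 (SD, n = 2) was above that of 93.5% of all tested genes. Sarnp, at 116 and 126 nt in WT and 122 and 120 nt in KO, was above 83.0% of genes and had a log2 difference of -0.00 (SE 0.14). Prim1 carried short tails, at 93.0 and 89.2 nt in WT and 90.6 and 97.3 nt in KO, above 13.7% of genes in WT. The order of Ptges3 above Prim1 held in each of the 4 libraries.

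Naca, the member with most reads, had median tails of 97.3 and 106 nt in WT and 104 and 102 nt in KO, on 640 to 1723 reads, a log2 difference of 0.01 (SE 0.10). The lower quartile of its reads lay between 66.0 and 70.2 nt over the libraries, and the upper quartile between 140 and 145 nt. Single molecules of this gene thus spread far more widely than the library medians. Myl6 had 98.0 and 118 nt in WT and 108 and 114 nt in KO (0.05, SE 0.12), and its KO libraries lay between its WT libraries.

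Cs and Pym1 were wide apart within the WT genotype. Cs had 92.8 and 149 nt in WT, on 52 and 37 reads, and 116 and 103 nt in KO (log2 -0.11, SE 0.16). Pym1 had 155 and 103 nt in WT, on 24 and 22 reads, and 134 and 102 nt in KO (-0.11, SE 0.21). The gap between the WT libraries exceeded the difference between the genotypes for both genes, and its direction turned with the WT library left out: Cs had -0.45 without WT 1 and 0.23 without WT 2, and Pym1 had 0.19 and -0.41. Cd63 had 114 and 99.1 nt in WT and 118 and 83.7 nt in KO (-0.10, SE 0.15), and Bloc1s1 had 104 and 94.5 nt in WT and 92.0 and 104 nt in KO (-0.02, SE 0.16). Bloc1s1 was thus among the members furthest apart in read number and among the closest in tail length.

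The largest tail difference among the members was that of Cnpy2, with 96.3 and 104 nt in WT and 95.4 and 78.9 nt in KO, a log2 difference of -0.21 (SE 0.14). It was -0.07 without KO 2, which held the shortest tails. Pa2g4 had 104 and 102 nt in WT and 96.3 and 92.6 nt in KO (-0.13, SE 0.14), with an SD of 1.30 nt in WT and 2.61 nt in KO. Its difference stayed between -0.16 and -0.10 with each library left out in turn. Neither passed the test (limma, adjusted p = 0.9998 for both).

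Long tails of 150 nt or more made up 19.5 and 20.7% of Naca reads in WT and 23.0 and 19.9% in KO. For Myl6 they made up 21.3 and 23.1% in WT and 22.5 and 25.5% in KO. Both genes were therefore alike in this share, and the genotypes overlapped for each. For Ptges3 the share was 51.8 and 31.5% in WT and 34.6 and 28.4% in KO, with WT 1 far above the other libraries. Tails under 30 nt were 2.97 and 2.94% of Naca reads in WT and 0.871 and 1.73% in KO, and 1.74 and 1.16% of Myl6 reads in WT and 0.317 and 0.554% in KO. Over all reads this share was 2.35 and 3.02% in WT and 1.55 and 2.75% in KO, lowest in KO 1. Prim1 also had lower shares in both KO libraries, with 6.98 and 6.45% in WT and 1.22 and 4.65% in KO. The genotypes overlapped for the other tested members. Cd63, for example, had 0.847 and 0% in WT and 0.671 and 5.74% in KO. Cnpy2 had 3.45 and 5.43% in WT and 4.30 and 6.67% in KO. The share of tails under 30 nt was not tested.

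The split of reads among transcripts was compared for the 12 members with at least 2 transcripts and 10 reads in each library. The share of reads on the leading transcript was lower in both KO libraries than in both WT libraries for 5 members (Prim1, Naca, Ptges3, Myl6 and Cd63), where 22.7% of 2551 genes showed this, and higher for Pym1 alone, where 8.47% did. Without WT 2 the count was 10 of 12, beside 54.1% of all genes, and on transcripts with a single symbol it was 2 of 9, beside 22.7% of all genes, a share near the background. Among the 5 members, Ptges3 had only 9 reads off its leading transcript, all in KO, and Prim1 had 188 of 199 reads on its own. For both genes the 95% Wilson intervals of the WT and KO shares overlapped. With 2 libraries against 2, an exact permutation test (two-sided) cannot give a p under 0.333, so no test was made. A gain in reads of 1 transcript changes both this share and the gene's total, so the share is not independent of the read number that chose the members.

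WT 1 stood apart in this measure. It had the highest leading share of the 4 libraries for 8 of the 12 members and for 45.6% of the 2551 genes, where WT 2, KO 1 and KO 2 had it for 15.9, 10.5 and 13.3%. Over those genes WT 1 had a median leading share of 85.5%, and the other libraries had 75 to 77.8%. Without WT 1 the members' median log2 difference in read number was 0.58.

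Naca shows the pattern at the highest depth. Its leading transcript ENSMUST00000073868.8 took 96.4% of the WT 1 reads of this gene, with a 95% Wilson interval from 94.7 to 97.6%. The share was 86.6% for WT 2 (83.7 to 89.0%), 84.0% for KO 1 (82.2 to 85.6%) and 85.1% for KO 2 (82.7 to 87.2%). The interval of WT 1 was apart from the others, while WT 2 overlapped both KO libraries. Nearly all other Naca reads were on ENSMUST00000092048.12, with 23 and 86 WT reads against 276 and 138 KO reads. Cd63 showed the widest range, with 81.4 and 52.3% of reads on ENSMUST00000026407.8 in WT and 42.3 and 50.8% in KO. Pa2g4 went the other way, with 37.5 and 61.3% on ENSMUST00000026425.12 in WT and 62.7 and 56.2% in KO, and again WT 1 was the library apart.

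**Figure D5:**
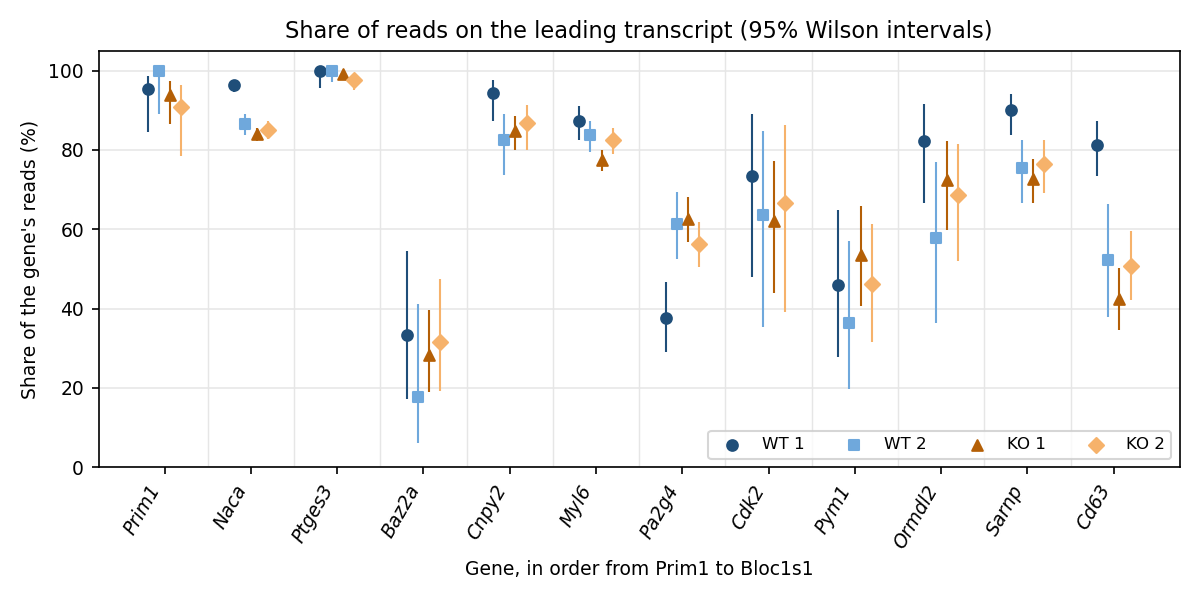
Share of each gene's reads on its leading transcript, in percent, with 95% Wilson intervals (counting error only), for 12 members in order along chromosome 10; each symbol is 1 library. For Naca and Cd63 WT 1 lies above the other libraries (96.4 and 81.4%), for Pa2g4 it lies below them (37.5%), and WT 2 lies near the KO libraries.

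Only the leading and the second transcript of a gene were compared for tail length within libraries. Both had at least 10 reads in each library for Naca, Pa2g4 and Sarnp. The leading Pa2g4 transcript had longer median tails than the second in 4 of 4 libraries, by 12.4 and 4.71 nt in WT and 8.84 and 9.77 nt in KO, a mean of 8.94 nt ± 3.21 (SD, n = 4). For Naca the leading transcript had shorter tails in 3 of 4 libraries, by a mean difference of -7.26 nt ± 9.13 (SD, n = 4). Sarnp had 2 libraries in each direction. These pairs were looked at after the reads were counted and were not tested.

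The deposited table also assigns genes to classes of Mov10 targets, whose origin is not given in the sources used here; m6A is a methylated adenosine in messenger RNA. Of the 19 fitted members, 2 were targets with m6A (Baz2a and Dnajc14; 10.5%, against 18.8% of all fitted genes), 6 were targets without m6A (31.6%, against 34.0%), 8 were non-targets (42.1%, against 31.4%) and 3 had no class (15.8%, against 15.8%). Members with large differences in read number were found in several classes, with Bloc1s1 and Rnf41 among non-targets, Pa2g4 among targets without m6A, Baz2a among targets with m6A, and Ptges3 in no class.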

How the data were processed

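Poly(A) tail lengths of single direct RNA reads were used from 2 WT and 2 KO libraries. The deposited table has 1 row per read, naming its transcript, symbol and library, with a tail length in nt that the authors estimated, with no normalization recorded; it has no column of counts. Per the submitters' processing notes minimap2 2.20 was used. The basecaller, the tail length tool, the genome build and annotation, and read filters are not given in the sources used here. Of 1903922 reads, 3 with a tail of 0 were left out.

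Reads were counted here per symbol and library and fitted over all genes whose mean reached 10 reads by voom in limma 3.58.1 (R 4.3.3), adding 0.5 reads, with median-of-ratios scaling. Tail length was fitted by limma on log2 medians over genes with at least 20 reads in each library, with a trend on log2 mean reads. P-values were adjusted by Benjamini-Hochberg with a threshold of 0.05. Both fits were run on simulated data with planted changes. No simulated library was made to stand apart from the others, so this checks the code and not the power in these libraries. The members and lists were chosen with earlier results of these data known. All 30 members are named; outside them, Mov10, the 3 nearest fitted genes on each side, and partner genes past the threshold or, if none, the 2 with the largest change in each direction. Btf3, Hsp90aa1, Cd9 and the genes between members were named after their values were seen. Gene order, strand and promoter sequence are from RefSeq on GRCm38.p6; gene coordinates are not printed. Tables used Python 3.11.15, pandas 2.3.3 and scipy 1.17.1. Alternatives changed scaling, filters, the model, the tail summary, the replicate block and the transcripts used, or left out each library in turn; those for transcript shares and for neighbouring genes were chosen after seeing the data.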

Additional observations from a re-analysis of the deposited data

How the results depend on the processing

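The members' median log2 difference in read number stayed above 0 in the alternatives run. It was 0.60 with scaling to library totals (0.11 over all genes), 0.61 with limma-trend and 0.49 where the filter was a mean of 5 reads. It was 0.41 with no filter, 0.49 with the replicate block and 0.48 on transcripts with a single symbol. With each library left out it was from 0.38 to 0.58. The SD between replicate libraries of the median over members was 0.01. Gaps of single members, such as Cd63 with 297 and 122 scaled RPM in WT, can cancel in that median, so this SD is not their spread. The count of members with both KO libraries above both WT libraries was 12 of 20 to 17 of 19 with a library left out and 16 of 19 with scaling by total reads; the same share over all genes rose too, to between 30.2 and 39.4% and to 25.2%. The nearest genes before Prim1 had a median from 0.22 to 0.54 with a library left out, both ends on 2 of the 3 genes since 1 fell below the filter. The median of the partners was 0.05 with scaling by total reads and from -0.09 to 0.03 with a library left out, and their calls ranged from 0 to 1. The median tail difference was -0.01 with the geometric mean and from -0.14 to -0.01 with a library left out; calls for tail length stayed at 0 of the members in each alternative run by limma, with 0 to 2 at an unadjusted p under 0.05. The count of members with a lower leading transcript share in KO was 2 of 9 on transcripts with a single symbol (22.7% of all genes) and from 5 to 10 of 12 with a library left out (32.3 to 54.1% of all genes). Single-symbol transcripts leave out 86.7% of Naca reads, whose log2 difference was then 1.55. Deviations of same-numbered libraries correlated at 0.0155 for read number and 0.0135 for tail length. With 2 libraries per genotype, these values cannot tell whether same-numbered libraries were handled together. With the replicate block, calls for read number over all genes were 66 against 0, and none were partner genes. Depth limits members with few reads.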
